A study of Bos taurus with 2 samples.

Results

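The miRNAs mir-199a, mir-199b and mir-214 were read from the deposited table of known bovine miRNAs by their pre-miRNA names, with both arms of each hairpin. The rule found 4 entries, mir-199a-3p, mir-199a-5p, mir-199b-5p and mir-214-3p, of 283 unique known miRNAs and of 884 unique miRNAs in all. The study sequenced small RNAs of the mammary gland (MG) of 2 multiparous Holstein cows with no other treatment, 1 library per condition. The lactation library came from a cow of 6 years that had been in milk for 2 months, and the non-lactation library from a cow of 4 years that was neither lactating nor pregnant. Each library is whole tissue of 1 animal, so lactation, age and the individual cow cannot be told apart. The deposited tables give 3 counts a miRNA, namely reads of the most abundant sequence, reads of all isomiRs (its length and sequence variants) and kinds of isomiRs. The most abundant sequences summed to 5745961 reads in lactation and 7879028 in non-lactation. Lactation and non-lactation below name these 2 libraries. RPM is the number of reads per 1000000 clean reads of its library, and each ratio divides the lactation RPM by the non-lactation RPM. Intervals are exact 95% intervals that cover counting error only, since copies made by PCR are not independent molecules, and no difference has a replicate check in the tables used here.

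A miRNA hairpin is cut into a 5p and a 3p strand, and the strand kept in the silencing complex pairs with target mRNAs mainly through its seed, bases 2 to 8. In mammals mir-199a and mir-214 are known as products of a shared long transcript from the strand opposite to the gene DNM3, which is made in mesenchymal cells such as fibroblasts, and mir-199b lies in the same way in DNM1. These libraries hold small RNAs alone, so mRNA markers of fibroblasts could not be checked, and a change in bulk tissue does not tell fewer cells of a type from less RNA per cell.

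The sequences are shown because they decide which reads can be told apart. The letters are those of the deposited tables, and capitals mark the seed.
mir-199a-3p: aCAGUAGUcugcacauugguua
mir-199c-3p: aCAGUAGUcugcacauugg
PC-199b-3p: aCAGUAUUcugcacauugguu
mir-199a-5p: cCCAGUGUucagacuaccuguu
mir-199b-5p: cCCAGUGUuuagacuaucuguu
mir-214-3p: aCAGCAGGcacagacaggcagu
CN-208-5p: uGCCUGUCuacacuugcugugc

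The 5p strands of mir-199a and mir-199b share the seed CCAGUGU and differ at 2 of 22 bases, C10U and C17U (positions from the 5′ end, mir-199a-5p first). mir-199a-3p and mir-214-3p differ at 14 of 22 bases and have different seeds. mir-199c-3p is identical to the first 19 bases of mir-199a-3p, so a 19-base read cannot be assigned between these entries. PC-199b-3p, a conserved entry named after an orangutan homolog, differs from mir-199a-3p by G7U, a base of the seed. CN-208-5p is a predicted candidate on the other arm of the mir-214 hairpin. These 3 related entries are described after the 4 that carry the names.

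The authors placed the pre-miRNA of mir-199a on chromosome 16, minus strand, from 36247788 to 36247891, and that of mir-214 on the same strand from 36241995 to 36242104 (BTA 4.0). A gap of 5683 bp separates the hairpins, within the 10 kb used by the study for clusters. The pre-miRNA of mir-199b was placed on chromosome 11, minus strand, from 102419001 to 102419100, with no other listed pre-miRNA within 10 kb. In RefSeq names for the later assembly ARS-UCD2.0, MIR199A-1 and MIR214 lie within the span of DNM3 on chromosome 16, and MIR199B lies within DNM1 on chromosome 11. RefSeq also names MIR199A-2, within DNM2 on chromosome 7. The deposited table gives mir-199a a single position and lists no 3p arm for mir-199b. In mammals the 3p strands of mir-199a and mir-199b are known to be the same sequence, so the reads of mir-199a-3p may come from several loci.

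The mir-199 strands were lower in lactation, and mir-214-3p did not pass the test. Fisher's exact test was two-sided, was adjusted over 883 miRNAs (Bonferroni), and compares these libraries and not the conditions. By this test 3 of the 4 entries were lower and none was higher. Over all 883 miRNAs tested, 10.9% were lower and 17.4% higher, and these include miRNAs of few reads. Of the 283 known miRNAs 22.3% were lower and 29% higher, and of the 273 miRNAs with at least 100 summed reads 31.9% were lower and 42.1% higher. Of the 4 entries, 1 was at least 4-fold lower with at least 100 summed reads, against 5.86% of the 273 miRNAs with that many reads. mir-199b-5p also passed the 4-fold limit with the scaling factors of edgeR (TMM) or DESeq2, without scaling and with all isomiR reads. At a 2-fold limit 3 of the 4 were lower, against 22.7% of those 273. With 46 summed reads mir-214-3p is not among the 273.

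mir-199a-3p, a strand known to target mRNAs of the growth regulators mTOR and MET, held nearly all reads of the group. It had 25123 reads (2100 RPM) in lactation and 159166 reads (9968 RPM) in non-lactation. The lactation level was thus 4.75-fold lower (4.68 to 4.81). It ranked 27th of 283 known miRNAs in lactation and 9th in non-lactation, and its share of the reads of known miRNAs was 0.446% and 2.08%. Of the 273 miRNAs with at least 100 summed reads, 10 had a lower ratio. It made up 98.4% of the summed reads of the 4 entries in lactation and 99% in non-lactation, so any sum over the group is a value of this strand.

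The 5p strands were less abundant than mir-199a-3p and moved in the same direction. mir-199a-5p, the other arm of its hairpin, is known from fibroblasts as a regulator of caveolin. It had 159 reads (13.3 RPM) in lactation and 565 reads (35.4 RPM) in non-lactation, 2.66-fold lower in lactation (2.23 to 3.20), with a Bonferroni-adjusted p of 5.60e-29 by Fisher's exact test. mir-199b-5p, which carries the same seed, had 214 reads (17.9 RPM) and 1077 reads (67.4 RPM). Its lactation level was 3.77-fold lower (3.25 to 4.39), with an adjusted p of 1.31e-87 by the same exact test. The reads of mir-199b-5p exceeded those of mir-199a-5p in both libraries, and their counting intervals did not overlap in either.

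mir-214-3p was rare in both libraries. Its most abundant sequence had 26 reads (2.17 RPM, 1.42 to 3.18) in lactation and 20 reads (1.25 RPM, 0.765 to 1.93) in non-lactation. The counting intervals overlap, and the ratio was 1.73 (0.932 to 3.28), with an unadjusted p of 0.073 and an adjusted p of 1 by Fisher's exact test. With all isomiRs counted it had 296 reads (24.7 RPM) and 365 reads (22.9 RPM), and the ratio was 1.08 (0.925 to 1.27). A difference between the libraries was not detectable at this depth, and the interval of the isomiR ratio leaves out the lower ratios of the other 3 entries.

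**Figure D1:**
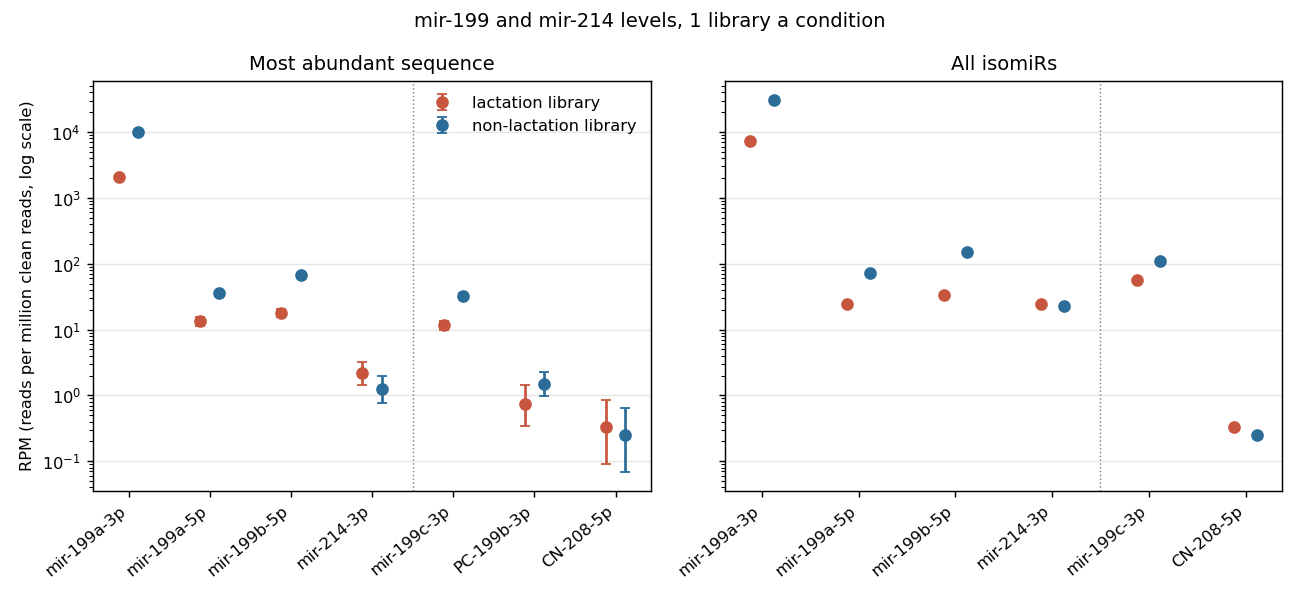
RPM (log scale) of the 4 entries (left of the dotted line) and of 3 related entries in the lactation and the non-lactation library, for the most abundant sequence with exact 95% counting intervals and for all isomiRs (drawn without intervals and without PC-199b-3p). mir-199a-3p stands at 2100 and 9968 RPM, far above the others, and mir-214-3p is the entry of the 4 whose lactation level is not the lower one.

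**Figure D2:**
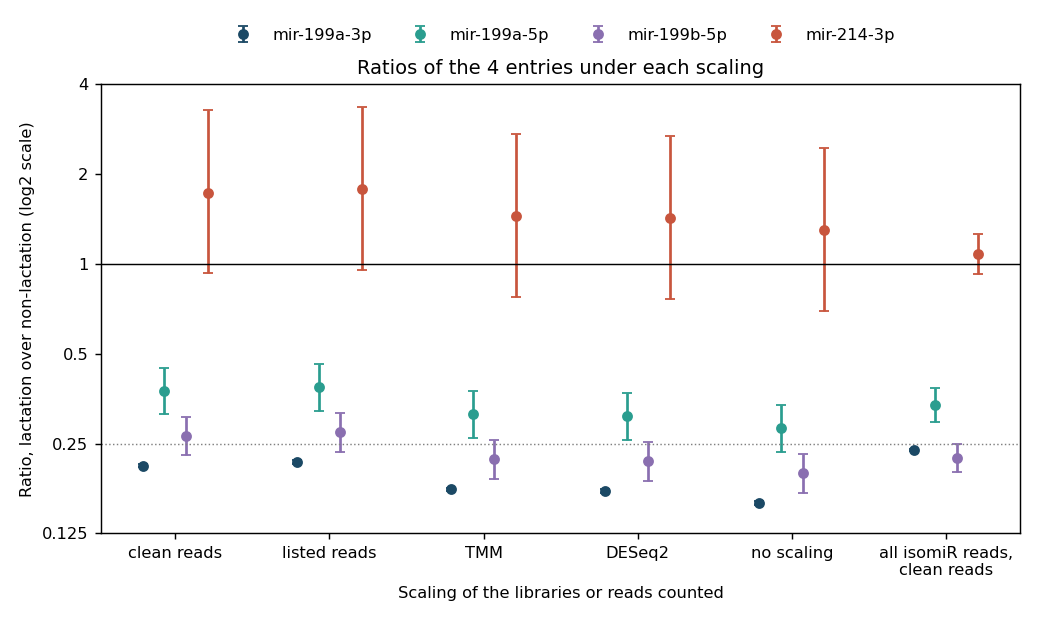
Ratio, lactation over non-lactation (log2 scale), of the 4 entries under 5 scalings of the most abundant sequence and for all isomiR reads, with exact 95% counting intervals. The dotted line marks a ratio of 0.25. The mir-199 entries lie below 1 in each setting, and the interval of mir-214-3p includes 1 in each.

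The ratio of each entry depends on how the libraries are scaled, but the comparison between entries within a library does not. The median log2 ratio of the 273 miRNAs with at least 100 summed reads was 0.24. Relative to this median the log2 ratios were -2.48 for mir-199a-3p, -2.15 for mir-199b-5p, -1.65 for mir-199a-5p and 0.56 for mir-214-3p, and a change of scaling leaves these differences as they are. Pairs of miRNAs were then compared by Fisher's exact test on their reads in both libraries, with p-values adjusted over 8 pairs (Bonferroni).

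The listed arms of mir-199a did not move to the same extent. Reads of mir-199a-3p may come from several loci, mir-199b among them, so these values are not those of a single hairpin. There were 158 reads of mir-199a-3p per read of mir-199a-5p in lactation and 282 in non-lactation, an odds ratio of 0.561 (0.469 to 0.673, adjusted p = 1.05e-08, exact test). The 3p arm held 99.4% (99.3% to 99.5%) and 99.6% (99.6% to 99.7%) of the reads of both arms, so the 3p strand dominated in both libraries. Among 16 known hairpins with at least 100 summed reads on each arm, the log2 ratios of the arms differed by a median of 0.75, and for mir-199a the 3p value was 0.83 below the 5p value. The difference for mir-199a was thus near the median, and that of mir-193a reached 1.51.

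The 5p strands with the shared seed also differed from each other. mir-199b-5p had 1.35 reads per read of mir-199a-5p in lactation and 1.91 in non-lactation, an odds ratio of 0.706 (0.558 to 0.895, adjusted p = 0.0269, exact test). With all isomiRs counted the odds ratio was 0.665 (0.561 to 0.789).

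mir-214-3p differed from the entries of mir-199a, whose listed hairpin lies beside it. Relative to mir-199a-3p its reads were 8.24-fold higher in the lactation library than in the non-lactation library (odds ratio, 4.42 to 15.6, adjusted p = 8.62e-11, exact test). With all isomiRs counted this odds ratio was 4.54 (3.88 to 5.31). Relative to mir-199a-5p it was 4.61 (2.40 to 8.96, adjusted p = 8.20e-06, exact test), and 3.21 (2.61 to 3.94) with all isomiRs. The listed hairpins of mir-214 and mir-199a lie 5683 bp apart on the same strand, and their entries differed in ratio between these libraries. Reads of the mir-199a entries may also come from other loci, such as MIR199A-2. The reads of the hairpin beside mir-214 are therefore not known by themselves.

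**Figure D3:**
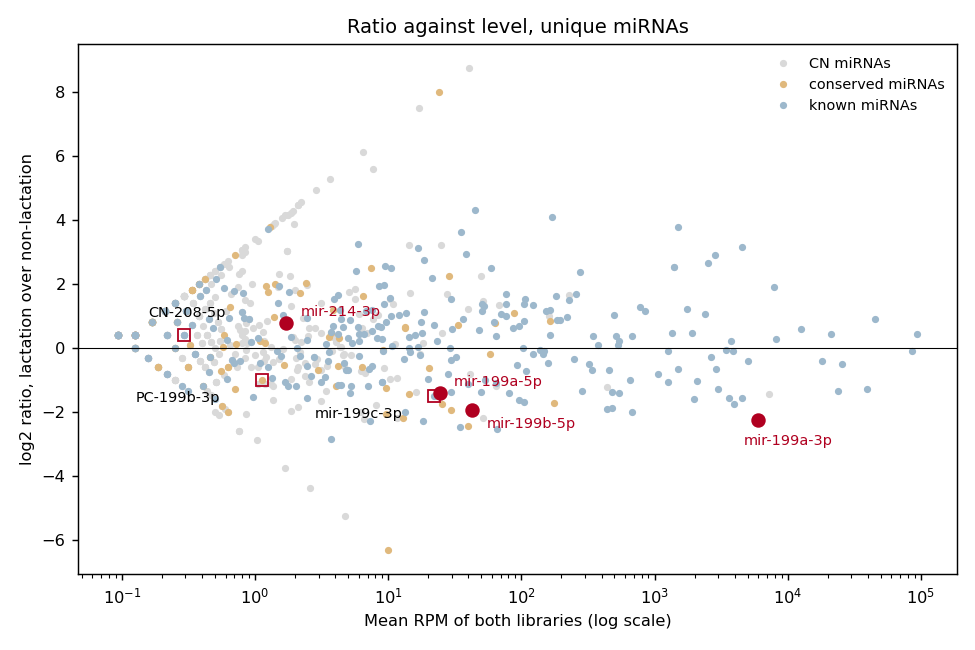
log2 ratio, lactation over non-lactation, against mean RPM of both libraries (log scale) for the unique miRNAs of the 3 tables. Red circles are the 4 entries and open squares the related ones, and mir-107-3p and PC-574-3p, listed at 0 in the lactation library, lie below the range drawn. mir-199a-3p lies among the most abundant miRNAs at -2.25, while mir-214-3p lies at 0.79 among miRNAs of few reads.

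isomiR reads of the mir-199 entries gave the same directions as the most abundant sequences. mir-199a-3p had 88556 isomiR reads (7401 RPM) in lactation and 495732 (31045 RPM) in non-lactation, 4.19-fold lower in lactation (4.16 to 4.22). mir-199a-5p had 289 and 1143 isomiR reads, 2.96-fold lower (2.60 to 3.38). mir-199b-5p had 401 and 2385, 4.46-fold lower (4.01 to 4.97). On this count mir-199b-5p was past 4-fold and had the lowest ratio of the 4, but its interval holds that of mir-199a-3p. With all isomiR reads of the 283 known miRNAs tested, the same 3 entries passed as lower, against 26.5% of known miRNAs.

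The most abundant sequence stood for very different parts of the reads of each entry. For mir-199a-3p it held 28.4% (28.1% to 28.7%) of the isomiR reads in lactation and 32.1% (32% to 32.2%) in non-lactation. Among known miRNAs with at least 100 isomiR reads the medians were 45.1% in lactation and 45.2% in non-lactation. mir-199a-5p, at 55.0% (49.1% to 60.8%) and 49.4% (46.5% to 52.4%), lay above these medians. mir-199b-5p held 53.4% (48.3% to 58.3%) and 45.2% (43.1% to 47.2%), and was itself the median entry of the non-lactation library.

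mir-214-3p had a flat set of isomiRs in both libraries. Its most abundant sequence held 8.78% (5.82% to 12.6%) of the isomiR reads in lactation and 5.48% (3.38% to 8.34%) in non-lactation. This was the lowest share of the 189 known miRNAs with at least 100 isomiR reads in the non-lactation library, and 1 of 182 was lower in the lactation library. The other isomiRs of mir-214-3p had on average 12.9 and 17.3 reads a kind, against 26 and 20 reads of the most abundant one. The ratio by the most abundant sequence therefore rests on a small part of its reads, and the isomiR count gives the narrower interval.

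Kinds of isomiRs grow with reads, so each entry was set beside the 10 known miRNAs nearest to it in isomiR reads. mir-214-3p had 22 kinds in the lactation library, where its neighbours had 6 to 15, and 21 in the non-lactation library, where they had 4 to 14. It thus had more kinds than each of its neighbours in both libraries. mir-199a-5p had 6 and 11 kinds, and none of its neighbours had fewer (6 to 15 and 11 to 24). mir-199a-3p had 247 and 337 kinds, near the medians of its neighbours at 248 and 302.5. mir-199b-5p had 8 and 22 kinds, below and above the medians of 12 and 18.5.

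**Figure D4:**
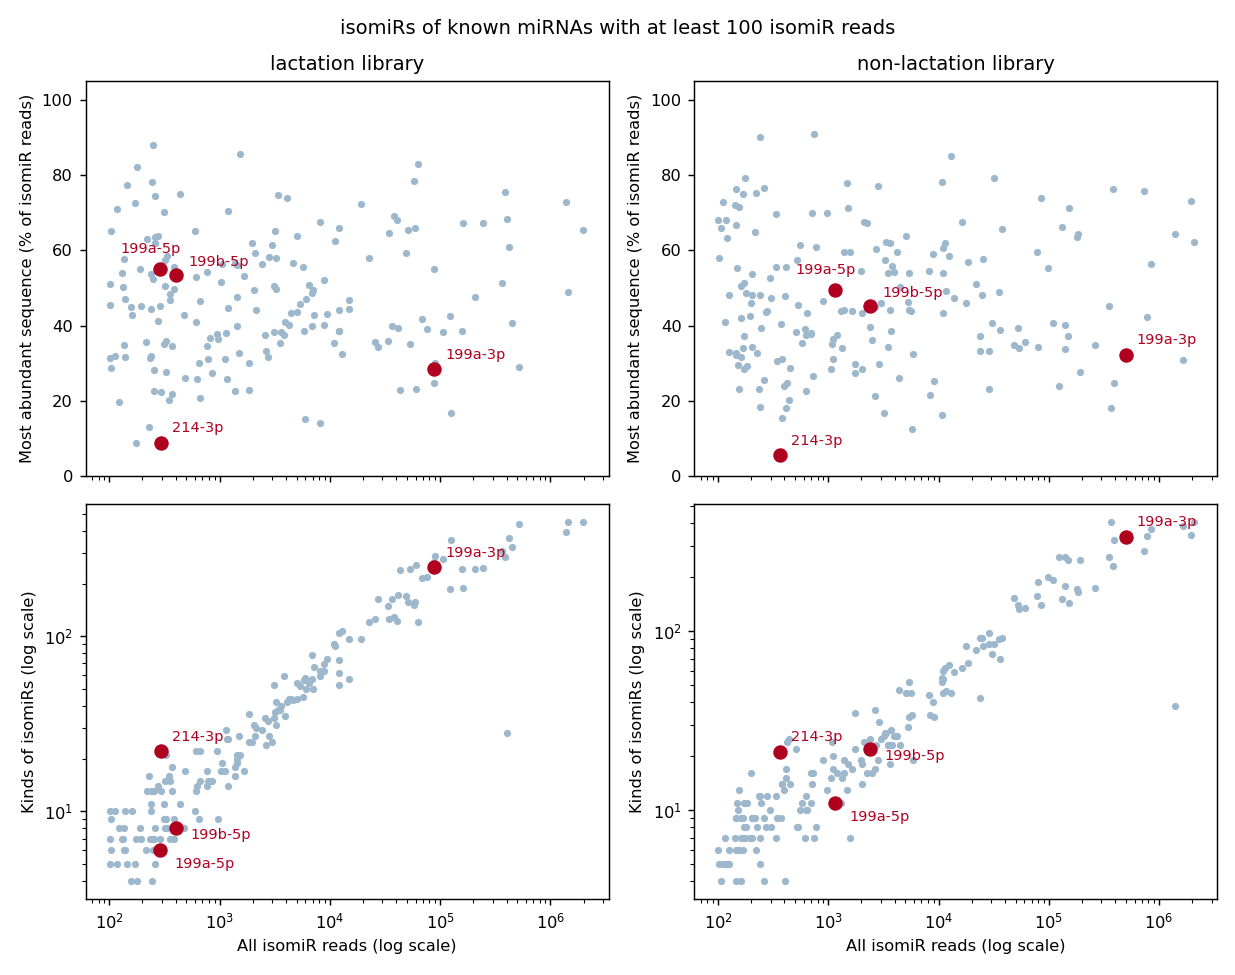
Share of the most abundant sequence in all isomiR reads (upper panels) and kinds of isomiRs (lower panels, log scale) against all isomiR reads (log scale) for known miRNAs with at least 100 isomiR reads in the lactation and the non-lactation library. mir-214-3p stands at the lower edge of the shares, at 8.78% and 5.48%, and above miRNAs of like depth in kinds, at 22 and 21.

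The related entries were all less abundant than mir-199a-3p. mir-199c-3p, which the authors placed on chromosome 19, plus strand, from 26439960 to 26440035, lies within NUP88 by RefSeq names. It had 138 reads (11.5 RPM) in lactation and 520 (32.6 RPM) in non-lactation, 2.82-fold lower in lactation (2.34 to 3.43, adjusted p = 3.80e-29, Fisher's exact test). The odds ratio of mir-199c-3p over mir-199a-3p was 1.68 (1.38 to 2.03, adjusted p = 2.10e-06, exact test), so the ratio of mir-199c-3p was nearer to 1. With all isomiRs counted the odds ratio was 2.14 (1.95 to 2.34). Reads of the shared stretch cannot be assigned, so the mir-199c-3p count may include reads of mir-199a-3p. Adding the reads of mir-199c-3p to those of mir-199a-3p left the latter at 4.74-fold lower. PC-199b-3p had 9 and 24 reads, a ratio of 0.50 (0.205 to 1.12), and did not pass (adjusted p = 1, Fisher's exact test). CN-208-5p, on the other arm of mir-214, had 4 reads in each library and a ratio of 1.33 (0.249 to 7.17). Both strands of mir-214 were thus listed, with more reads on the 3p strand.

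Lists of miRNAs linked to cell types or tissues were read beside these entries. Among 10 miRNAs linked to stroma and smooth muscle, 5 were lower in the lactation library, 4 were higher and 1 did not pass, with a median log2 ratio of -0.66. The 4 mir-199 and mir-214 entries had a median of -1.66, and the 273 miRNAs with at least 100 summed reads one of 0.24. These counts stand beside 22.3% lower and 29% higher among the 283 known miRNAs. Among the 273 miRNAs with at least 100 summed reads 31.9% were lower and 42.1% higher. Of the list, 4 of 10 higher is near its share and 5 of 10 lower is above its share. No test was run on the list. mir-125b-5p had 22205 and 87038 reads, 2.94-fold lower (2.89 to 2.98). mir-143-3p, a smooth muscle miRNA, had 29561 and 16770 reads, a ratio of 2.35 (2.31 to 2.40). mir-145-5p of the same cluster had 48288 and 54860 reads, a ratio of 1.17 (1.16 to 1.19). The ratios of mir-145-5p and mir-152-3p, both among the 4 higher, were below 1 with TMM factors, with DESeq2 factors and without scaling.

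The difference between mir-199a-3p and these stromal miRNAs was tested on their reads. Reads of mir-199a-3p per read of mir-143-3p were 0.850 in lactation and 9.49 in non-lactation, an odds ratio of 0.0895 (0.0875 to 0.0916). Per read of mir-145-5p they were 0.520 and 2.90, an odds ratio of 0.179 (0.176 to 0.183). Per read of mir-125b-5p they were 1.13 and 1.83, an odds ratio of 0.619 (0.607 to 0.631). All 3 passed the exact test over 8 pairs. With this many reads small differences also pass, and the test compares these libraries and not the conditions. By the size of the odds ratios mir-199a-3p was nearer to mir-125b-5p than to mir-143-3p or mir-145-5p.

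Of the 10 epithelial miRNAs, 6 were higher in the lactation library, mir-205-5p was lower and 3 did not pass. Among known miRNAs 29% were higher and 22.3% lower, and among the 273 miRNAs with at least 100 summed reads 42.1% and 31.9%. The epithelial miRNAs were then summed. Their summed level was 15183 RPM in lactation and 2811 RPM in non-lactation. Both arms of mir-126, an endothelial miRNA, were higher, with summed levels of 487 and 165 RPM. Of 5 miRNAs of striated muscle, 3 were higher and 2 did not pass, with 4494 and 702 RPM. mir-1-3p alone had 4393 and 691 RPM, so these sums are nearly the values of that miRNA. Blood cell miRNAs had 156 and 149 RPM, with 2 of 7 higher and 2 lower, near the shares of known miRNAs. The higher ones were mir-451-5p (889 and 475 reads) and mir-486-5p (194 and 44 reads). The lower ones were mir-142-3p (161 and 416 reads) and mir-142-5p (423 and 1128 reads), and 3 did not pass. The near-equal sums thus join miRNAs that moved in opposite directions, and do not show that blood content was alike. Of 4 miRNAs linked to matrix and fibrosis, mir-29a-3p, mir-29b-3p and mir-21-5p were lower and mir-29c-3p was higher. mir-144-3p, a miRNA of red blood cells, was listed with 3 reads in lactation and 0 in non-lactation. The part of these cell types in the ratios of the mir-199 entries was not tested.

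The known miRNAs most like mir-199a-3p were sought among 104 others with at least 1000 summed reads. Of these mir-107-3p, listed with 0 isomiR reads in lactation, was left out. Likeness was the distance between log2 ratios of most abundant sequences and of all isomiRs over the 2 libraries. The nearest were mir-221-3p (distance 0.26, 3.97-fold lower), mir-181d-5p (0.29, 5.52-fold lower) and mir-199b-5p (0.34). mir-181d-5p had 128 and 943 reads, and its interval was wide (4.59-fold to 6.69-fold). With 1 library per condition, many miRNAs can share a ratio, and likeness here is a description of these libraries.

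**Figure D5:**
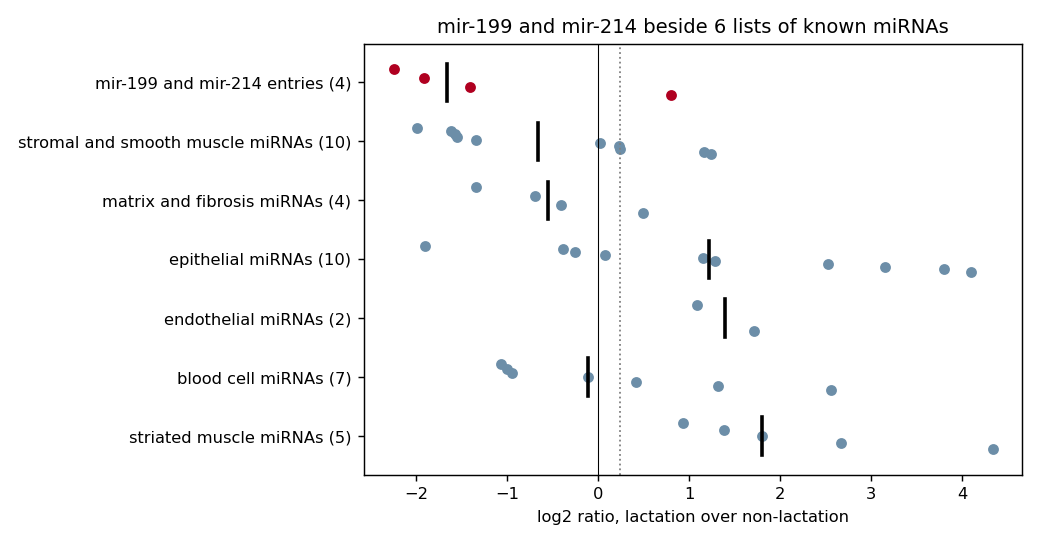
log2 ratio, lactation over non-lactation, of the 4 entries (red) and of 6 lists of known miRNAs (blue), with the number of miRNAs in parentheses. Black bars are list medians and the dotted line is the median of 0.24 over the 273 miRNAs with at least 100 summed reads. The mir-199 entries lie at or beyond -1.41, and mir-214-3p lies apart from them at 0.79.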

How the data were processed

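Read counts were deposited. To make them the authors removed adaptors, reads of low quality and reads of other RNA classes from Illumina Genome Analyzer output and mapped the rest to miRBase 17.0 and the bovine genome BTA 4.0 with the ACGT101-miR program. For extraction the study names a Qiagen miRNeasy kit, and the labels name Trizol. The 4 isomiR columns of the conserved table were not used. isomiR columns of the CN table were taken as kinds before reads, the order that the values allow.

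RPM used the clean reads of each library given by the study. Ratios have Clopper-Pearson intervals conditional on summed reads, and the floor for a listed 0 was 3 reads. Fisher's exact test (threshold 0.05) and the ratio intervals were tested on counts simulated with counting error alone. Variation between animals or from PCR was not part of that simulation. Conditional odds ratios were checked against those of scipy on fixed example counts. Named miRNAs are the 4 entries, entries related by name, sequence, seed or position (10 kb), the nearest 3 by ratio, and members of 6 lists. The members and lists were chosen with earlier results of these data known. Alternatives were other scalings (listed reads, edgeR TMM, DESeq2, none), all isomiR reads, Benjamini-Hochberg adjustment and other thresholds, and adding the reads of mir-199c-3p was chosen after seeing the data. Python 3.11.15, scipy 1.17.1, R 4.3.3, edgeR 4.0.16 and DESeq2 1.42.0 were used, the last 2 for scaling factors alone. Raw reads, the microarray and RT-PCR were not analysed here.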

Additional observations from a re-analysis of the deposited data

How the results depend on the processing

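The 3 mir-199 entries were lower and passed the test, and mir-214-3p did not pass, under each scaling, with all isomiR reads, with Benjamini-Hochberg adjustment and with only miRNAs of at least 10 summed reads tested. Over these settings the ratio ranged from 0.158 to 0.238 for mir-199a-3p, from 0.281 to 0.386 for mir-199a-5p, from 0.199 to 0.272 for mir-199b-5p and from 1.08 to 1.78 for mir-214-3p. Of the 883 miRNAs tested, 10.9% were called lower with clean reads as totals and 9.85% with listed reads. This share was 12.9% with TMM, 13.1% with DESeq2 factors and 14.2% without scaling. With all isomiR reads 26.5% of the 283 known miRNAs were called lower. The 8 odds ratios kept their direction and passed with all isomiR reads. The number of entries at least 4-fold lower was 1 with clean reads or listed reads as totals, and 2 with TMM factors, with DESeq2 factors, without scaling and with all isomiR reads, since mir-199b-5p was then 4.52-fold, 4.59-fold, 5.03-fold and 4.46-fold lower. At a 2-fold threshold it was 3, against 22.7% of the miRNAs with at least 100 summed reads, which leave out mir-214-3p. Past the 4-fold limit were 16 of the 273 miRNAs that reached 100 summed reads, 25 with TMM, 26 with DESeq2 factors and 29 without scaling. The median log2 ratio moved by -0.26, -0.28 and -0.42, and the share with higher RPM in the lactation library fell from 56.0% to 45.4% without scaling. With all isomiR reads 9 of 205 known miRNAs were at least 4-fold lower. No paired analysis was possible because each condition had 1 library. Depth limits PC-199b-3p, CN-208-5p and the most abundant sequence of mir-214-3p, whose intervals include 1. With all isomiR reads the interval of mir-214-3p was narrower, 0.925 to 1.27, and also included 1.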
